A study of Mus musculus with 4 samples.

Results

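The genes described here are the well expressed members of the mouse Zfp series, the numbered zinc finger genes. They were chosen by name and level: every row of the deposited table named Zfp plus a number, and with a mean of at least 300 normalised reads over the 4 libraries, was kept. This gave 207 of the 367 Zfp-number rows, in a table of 32681 rows. The libraries came from primary neuron cultures of neocortices from wild-type CD-1 mouse embryos at embryonic day 13, kept in Neurobasal medium with B27 supplement, and total RNA was taken with Trizol. Both libraries of the first group carried a control shRNA and both of the second an shRNA against DcpS, a scavenger decapping enzyme that breaks down the cap remnant of mRNAs decayed from their 3′ end; the study looked for RNAs that respond to its loss. The labels name no litter or culture for any library, so the spread behind the p-values is that of these 4 samples and may be technical.

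C2H2 zinc finger proteins form the largest family of mammalian transcription factors. Each finger is a short fold around a zinc ion, and fingers in tandem read successive bases of DNA. Many carry an N-terminal KRAB domain, whose A box binds the co-repressor Trim28 (KAP1), which brings in the H3K9 methyltransferase Setdb1, HP1 proteins and DNA methylation; retroelements and imprinted loci are the best known targets. KRAB genes sit in tandem clusters that grew by duplication, while zinc finger genes without KRAB include old, conserved factors with roles in RNA binding, ubiquitin transfer and neural development.

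Of the 207 genes, 110 encode a KRAB A box in at least 1 annotated isoform and 97 do not. The lowest KRAB score that was accepted was 16 of 29 positions and the highest score among the rest was 14. All 207 genes passed the filter on low counts. Mean levels ran from 300.6 to 7178 normalised reads with a median of 730.9, and the number of fingers ran from 0 to 36 with a median of 10. The values that decided membership fell close together at the threshold: just inside lay Zfp850 (300.6), Zfp202 (301.0) and Zfp954 (318.1), and just outside Zfp873 (294.9), Zfp239 (290.4) and Zfp7 (290.3). The recovered depth was 17754768 to 21793685 reads a library. Dcps itself, on chromosome 9, measured 499.8 and 506.6 normalised reads in the controls and 114.5 and 119.6 under DcpS shRNA, 23.3% of the control mean.

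The sequences around the RefSeq starts of these genes are shown first, because a word shared by several of them runs through the chromosome 7 cluster that held the gene with the lowest difference. Of the 207 genes, 8 with KRAB lie from Zfp84 to Zfp14 on chromosome 7. Of these 8, 6 hold within RefSeq's promoter window (250 bases before and 50 after the start) the word ACTACANTT, read on either strand. Each is given below as 40 bases on the strand that reads ACTACA, with the word in capitals (GRCm38.p6; Zfp84 chr7:29768516-29768555, minus strand; Zfp790 chr7:29815955-29815994, minus; Zfp940 chr7:29853659-29853698, plus; Zfp383 chr7:29908461-29908500, plus; Zfp74 chr7:29954090-29954129, plus; Zfp14 chr7:30051386-30051425, minus).
Zfp84: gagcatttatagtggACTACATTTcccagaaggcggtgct
Zfp790: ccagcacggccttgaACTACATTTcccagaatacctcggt
Zfp940: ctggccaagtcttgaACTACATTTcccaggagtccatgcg
Zfp383: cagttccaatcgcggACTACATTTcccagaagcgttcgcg
Zfp74: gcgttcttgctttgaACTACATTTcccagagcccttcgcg
Zfp14: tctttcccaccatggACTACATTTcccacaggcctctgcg
In all 6 the word runs on into the bases CCCA. The other two genes of the cluster, Zfp30 and Zfp27, do not hold these letters in the window.

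Over the 32851 RefSeq promoters of the same length, 1.57% held ACTACANTT, counted by single promoter. Counted by gene, in any promoter entry, it stood in 18 of 98 KRAB genes (18.4%) and 6 of 73 others (8.22%) of the 171 Zfp genes with a promoter. It stood in 204 of 7018 like-level genes (2.91%) and 3 of 37 KRAB genes under other names (8.11%). The 18 include the 6 neighbouring genes shown above, so they are not separate instances. It was looked for after the first promoters had been read, so these shares are a description. A match of letters shows no bound factor.

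The lower values were mostly those of KRAB genes. In the 110 KRAB genes the median log2 difference (DcpS shRNA minus control shRNA) was -0.10, a median change of -6.47%, and 90 of them (81.8%) were on the lower side. In the 97 genes without KRAB the median was 0.01 and 45 (46.4%) were on the lower side. The 9280 non-Zfp genes of like level, those with a mean of at least 300, had a median of 0.01 with 46.2% lower, and all 18110 genes tested had a median of 0.00. Like level here means the floor of 300 only. The median of the mean levels was 591 in the KRAB genes, 1030 in the other Zfp genes and 1080 in the like-level genes. The distance between the KRAB median and the median of the like-level genes was -0.11 on the log2 scale. Over all 207 genes together the median was -0.04 (-3.01%), with 135 (65.2%) lower and none changed by 1.5-fold or more. A trend on GC content and exon length was also removed from each library, which re-centred the libraries on a common mean and so moved the zero. The median of all 207 genes was then -0.0089 and that of the KRAB genes -0.0524, with 76 of 110 lower, while the like-level median was 0.0374. No test is attached to these medians, since the genes were proposed with the shift already known.

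**Figure D1:**
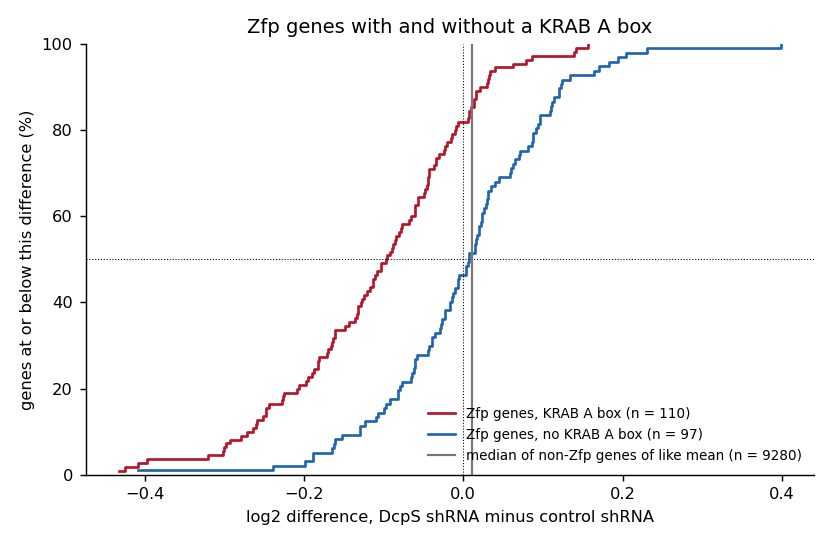
Cumulative share of Zfp genes (y axis, percent) at or below each log2 difference between DcpS shRNA and control shRNA (x axis), for the 110 genes with a KRAB A box (red) and the 97 without (blue); the grey line is the median of the 9280 non-Zfp genes of like mean. The red curve lies left of the blue one, with 81.8% of KRAB genes below 0 against 46.4% of the others.

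Both DcpS shRNA libraries showed it. Measured as the median deviation from each gene's control mean, the KRAB genes stood at 0.01 and -0.01 in the 2 control libraries and at -0.10 and -0.10 in the 2 DcpS shRNA libraries. The genes without KRAB stood at 0.02 and -0.02 in the controls and at 0.03 and -0.01 under DcpS shRNA. The KRAB medians of the DcpS libraries thus lay outside the span of the controls and those of the other Zfp genes overlapped it.

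**Figure D2:**
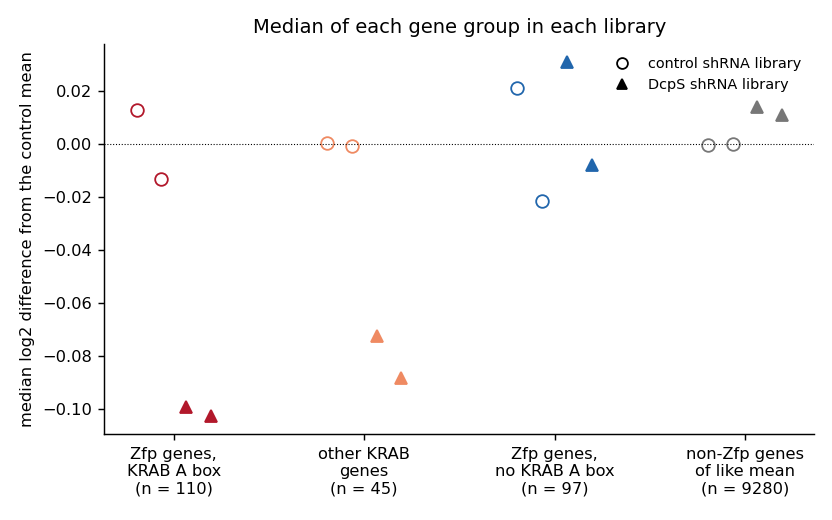
Median log2 difference from the control mean (y axis) in each of the 4 libraries, for 4 groups of genes; open circles are control shRNA libraries and triangles DcpS shRNA libraries. Both groups of KRAB genes lie between -0.07 and -0.10 in the DcpS shRNA libraries, and the other groups lie between -0.01 and 0.03.

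Markers of some other cell types differed between the groups. The summed level of 10 fibroblast and matrix markers was 17750 and 19080 in the controls and 11240 and 10850 under DcpS shRNA, and all 10 were called lower. That of 9 endothelial and mural markers was 725.0 and 809.1 against 467.0 and 441.4. In that list 5 of 7 tested were lower, with Pdgfrb, Acta2 and Kdr called lower and Rgs5 short of a call (-1.27, SE 0.37, limma, adjusted p = 0.0549). Pecam1 (0.93, SE 0.44) and Tagln (0.51, SE 0.33) were above both controls in both DcpS libraries without passing the test. Rgs5, Pecam1 and Tagln had low means of 16.3, 13.1 and 18.7 normalised reads. Cldn5 (mean 0.7) and Flt1 (mean 7.2) were too low to be tested. The sum of 8 astrocyte markers was 10790 and 11140 against 10060 and 10330, with 4 called lower and 1, the strongly expressed Aldoc (mean 4097.4), higher. Of the 8, 7 had both DcpS libraries below both controls, and the median was -0.44. Of 8 radial glia and progenitor markers 7 were higher (median 0.12), with Nes called higher, and the oligodendrocyte lineage markers summed to 564.4 and 590.7 against 575.1 and 590.0, with 5 of 6 tested lower and Mbp called higher. Microglia markers summed to 207.1 and 203.1 against 193.5 and 196.7 and interneuron markers to 332.6 and 342.5 against 304.4 and 306.2, with none called by limma in either list (1 each at an unadjusted p under 0.05). The 12 neuron markers, which the label asks for, were all present, with sums of 104600 and 103300 against 99850 and 99000. Of these markers 9 were lower, with Snap25 (-0.26) and Syt1 (-0.22) called lower by limma and Slc17a7 (0.52) and Rbfox3 (0.24) called higher. The part of these cells in the KRAB shift was not tested, and in bulk RNA fewer cells of a type and less RNA per cell cannot be told apart.

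Gene by gene, 59 of the 110 KRAB genes (53.6%) had both DcpS shRNA libraries below both controls and 5 (4.55%) had both above. Over all genes tested the shares were 24.0% below and 24.4% above. Among the 97 genes without KRAB, 20 were below and 22 above.

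Few single genes passed the test. Of the 207 genes 10 were called by limma (Benjamini-Hochberg adjusted p under 0.05), 9 lower and 1 higher, while 5.79% of all genes tested were called, 3.65% lower and 2.14% higher. The share called among the Zfp genes was 4.83%, and among the 9280 non-Zfp genes of like level it was 8.23% (318 higher, 446 lower). At an unadjusted p under 0.05 the count was 54 of 207, beside 2200 of the 9280 like-level genes and 3380 of all 18110. Of the 9 that fell, 8 carry KRAB, and no KRAB gene was called higher. DESeq2 on the recovered reads, which calls 2.9% of the genes it adjusts, called none of the 207 (20 at an unadjusted p under 0.05), whereas edgeR's quasi-likelihood test called 10.

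Zfp74, with 18 fingers in the chromosome 7 cluster (chr7:29930815-29954089, minus strand), had the lowest difference of all. It measured 520.7 and 542.5 normalised reads in the controls (531.6 ± 15.4, SD, n = 2) and 405.2 and 382.2 under DcpS shRNA (393.7 ± 16.3, SD, n = 2), a log2 difference of -0.43 (SE 0.08, limma, adjusted p = 0.00419). The groups did not overlap. Its neighbour Zfp84, with 11 fingers (chr7:29768552-29779821, plus strand), measured 421.9 and 404.1 in the controls and 333.4 and 327.4 under DcpS shRNA (-0.32, SE 0.09, limma, adjusted p = 0.0434). The call of Zfp84 was lost without either control library and without DcpS library 2.

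Further along the same chromosome Zfp850 (chr7:27984854-28014115, minus strand) gave 344.9 and 340.5 in the controls and 239.0 and 278.3 under DcpS shRNA, a difference of -0.41 (SE 0.10, limma, adjusted p = 0.0275). Zfp324 (chr7:12965838-12974236, plus strand) gave 447.5 and 445.1 against 328.9 and 348.7 (-0.40, SE 0.09, limma, adjusted p = 0.0116). In both, the controls lay within a few reads of each other and all DcpS values lay far below them. The call of Zfp850 ended without control library 1 and without DcpS library 1.

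On chromosome 9, 2 nearby KRAB genes fell by less. Zfp426 (chr9:20468549-20492746, minus strand) measured 1076.5 and 1150.6 in the controls and 914.9 and 955.5 under DcpS shRNA (-0.25, SE 0.06, limma, adjusted p = 0.0275). Zfp26, with 22 fingers, measured 1987.8 and 2051.1 against 1824.4 and 1679.6 (-0.21, SE 0.06, limma, adjusted p = 0.0477). The Zfp26 call sits at the threshold: it ended with library-total scaling, without the GC and length trend, without either control and without DcpS library 2. The Zfp426 call ended without control library 2.

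Zfp46 on chromosome 4 (chr4:136284683-136293942, plus strand) fell from 1152.6 and 1112.7 to 925.8 and 940.9 (-0.28, SE 0.06, limma, adjusted p = 0.0114). Zfp287 on chromosome 11 (chr11:62700356-62731905, minus strand) went from 474.1 and 384.6 to 321.6 and 314.0 (-0.43, SE 0.10, limma, adjusted p = 0.0215), the widest control spread of the called genes. Both lost their call without control library 1. Zfp35, which has 17 fingers and a KRAB score of 8, was the 1 gene without KRAB that fell: 554.9 and 529.2 in the controls, 396.1 and 420.2 under DcpS shRNA (-0.41, SE 0.08, limma, adjusted p = 0.00606).

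Zfp367, a transcription factor with 2 fingers by this count (chr13:64133018-64153202, minus strand), was the 1 gene that rose. It measured 463.7 and 433.8 in the controls and 596.9 and 586.7 under DcpS shRNA (0.40, SE 0.08, limma, adjusted p = 0.00536), 132% of the control mean. Its call and those of Zfp74, Zfp324 and Zfp35 held in every alternative run but DESeq2.

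**Figure D3:**
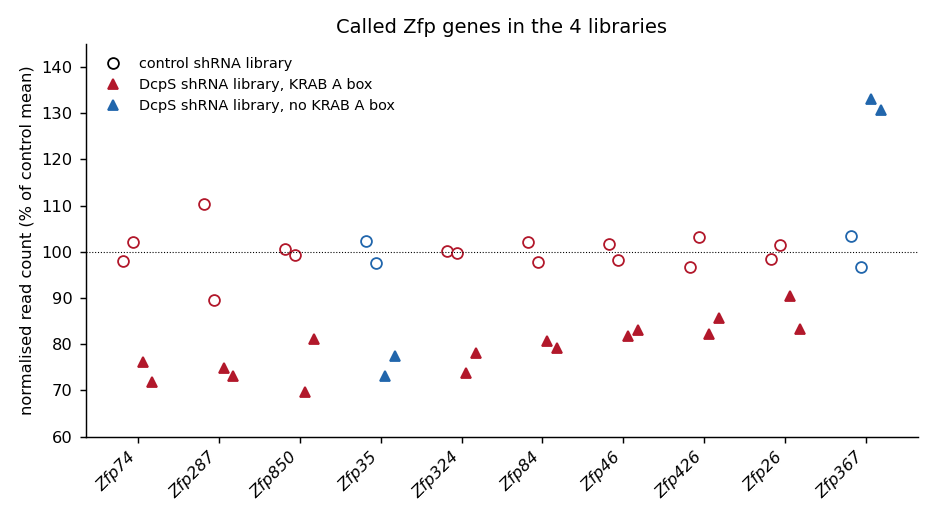
Normalised read counts of the 10 called Zfp genes (x axis) as a percentage of each gene's control mean (y axis, which starts at 60%), with open circles for control shRNA and triangles for DcpS shRNA libraries. In every gene both triangles lie on the same side of both circles, below them in 9 genes and above them in Zfp367. The genes were picked by the test on these same values, which favours such separation.

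The promoters of Zfp324 and Zfp367 are given because these are called genes of opposite direction, as the 250 bases before the start (RefSeq, GRCm38.p6; Zfp324 chr7:12965588-12965837, plus strand; Zfp367 chr13:64153200-64153449, minus strand, the first of its 2 entries). Capitals mark the ETS core CCGGAAG, then CCAAT, then the GC box CCCGCCC and then ACTACANTT, each on either strand; none of the marks overlap here.
Zfp324: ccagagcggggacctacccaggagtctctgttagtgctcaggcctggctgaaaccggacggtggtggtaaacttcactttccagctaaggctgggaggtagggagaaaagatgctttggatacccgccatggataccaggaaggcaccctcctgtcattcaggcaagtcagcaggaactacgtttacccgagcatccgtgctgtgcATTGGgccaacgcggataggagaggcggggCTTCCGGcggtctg
Zfp367: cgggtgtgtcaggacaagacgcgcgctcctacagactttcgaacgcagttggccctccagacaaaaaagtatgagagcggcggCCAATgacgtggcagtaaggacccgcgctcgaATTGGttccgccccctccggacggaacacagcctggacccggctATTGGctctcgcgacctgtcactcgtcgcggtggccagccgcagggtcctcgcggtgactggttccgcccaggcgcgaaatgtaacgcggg
Zfp324 holds 1 ETS core and 1 CCAAT, and Zfp367 holds 3 CCAAT.

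As groups the promoters differed most in the GC box. Shares of groups are of genes with the word in at least 1 promoter entry, and shares of all are of single promoters. The 2 are thus not in the same unit. CCCGCCC stood in 26.5% of the KRAB genes, 60.3% of the other Zfp genes and 56.0% of the like-level genes (25.6% of all single promoters). CCAAT stood in 56.1%, 38.4% and 43.9% in the same order (37.4% of all single promoters), and CCGGAAG in 31.6%, 20.5% and 22.4% (8.86% of all single promoters). KRAB genes with ACTACANTT had a median difference of -0.15 (15 of 18 lower) and those without it -0.09 (65 of 80 lower). In the chromosome 7 cluster the 6 genes with the word and the 2 without had medians of -0.23 and -0.24. The 202 like-level genes without KRAB that hold it had a median of 0.02. The Zfp genes without KRAB had a median of -0.07 with the word (5 of 6 lower) and 0.01 without it (28 of 67 lower).

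The chromosomal place of the KRAB genes divided them further. The 24 KRAB genes of chromosome 7 had a median of -0.20, 23 of them lower and 4 called, and the 11 of chromosome 9 a median of -0.18, 10 lower and 2 called. The 21 KRAB genes of chromosome 17 had a median of -0.04 (15 lower, 0 called by limma, 5 at an unadjusted p under 0.05) and the 9 of chromosome 8 a median of -0.05 (5 lower). The 22 Zfp genes without KRAB on chromosome 7 had a median of 0.00.

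Clusters were drawn where KRAB genes of the 207 followed each other within 500 kb. Other KRAB genes inside them, of lower level or under other names, were not counted. In the cluster from Zfp84 to Zfp14 (chr7:29768552-30051380) 7 of 8 genes were lower, all 7 with both DcpS libraries below both controls, and the median was -0.24. The 13 like-level genes without KRAB within 500 kb of it had a median of 0.00, with 6 lower. Zfp790 shows a gene of this cluster short of a call: 414.3 and 453.3 in the controls, 352.5 and 350.9 under DcpS shRNA (-0.30, SE 0.09, limma, adjusted p = 0.0590). Zfp14, at the end of the cluster, stood apart, with 394.3 and 410.2 against 388.9 and 420.2 (0.01, SE 0.09). Zfp568, a KRAB gene inside this stretch with a mean of 269.9, was not counted and stood at -0.02 (SE 0.11).

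The cluster from Zfp60 to Zfp850 (chr7:27731389-28014115) had 4 of 4 counted genes lower and a median of -0.20, with its 24 neighbours at 0.00. Zfp780b, a KRAB gene inside it that the naming rule left out, stood at -0.12 (SE 0.10). The chromosome 9 cluster from Zfp560 to Zfp846 (chr9:20345136-20605409) had 5 of 5 lower, a median of -0.21 and 8 neighbours at 0.05. The largest cluster, 11 genes from Zfp948 to Zfp13 on chromosome 17 (chr17:21567008-23599487), had 6 lower and a median of -0.01, from -0.27 to 0.16. A chromosome 8 cluster from Zfp930 to Zfp866 had 1 of 4 lower. The clusters thus differed in their medians, and no test of that difference was made. Genes of a cluster are close paralogs, and where reads match more than 1 of them the counting rule is not given in the sources used here; Zfp965, Zfp966 and Zfp968 on chromosome 2, with differences of -0.12, -0.13 and -0.18 (SE 0.10, 0.09 and 0.14), are among those that may share reads.

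**Figure D4:**
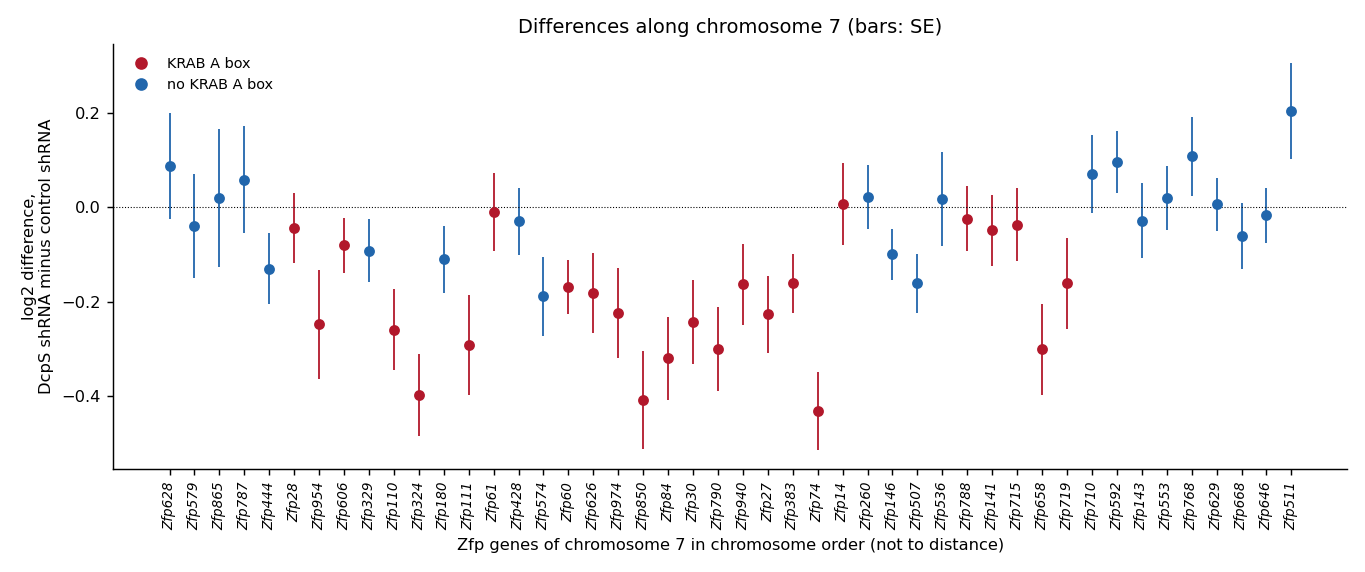
Log2 difference between DcpS shRNA and control shRNA (y axis, bars are SE) of the 46 Zfp genes of chromosome 7 in chromosome order (x axis, not to distance), with KRAB genes in red and others in blue. The red points from Zfp60 to Zfp74 lie at or below -0.16, and Zfp14 and the blue points after it from Zfp260 to Zfp536 lie between -0.16 and 0.02.

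KRAB genes with many and with few fingers had like medians. The 99 KRAB genes with at least 7 fingers had a median of -0.10 and the 10 with 1 to 6 fingers -0.11. Zfp genes without KRAB had medians of -0.01 with at least 7 fingers (57 genes) and 0.01 with 1 to 6 (38 genes). Genes of at least 7 fingers that are neither Zfp nor KRAB, 39 at this level, had a median of -0.02.

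It was also seen in KRAB genes that the naming rule left out. The 45 KRAB genes of like level under other names, such as Gm15446 and Rbak, had a median of -0.09 with 37 (82.2%) lower and 26 with both DcpS libraries below both controls. None of them was called lower (limma), and 1 was called higher; 11 of the 45 had an unadjusted p under 0.05, a share close to the 2200 of 9280 like-level genes. Gm15446, which with Zfp932 is known for silencing endogenous retroviruses, measured 756.3 and 787.6 in the controls and 701.4 and 701.8 under DcpS shRNA (-0.14, SE 0.07). The 1 called higher was Zik1, at 1362.5 and 1156.8 against 1471.9 and 1544.4 (0.26, SE 0.07, limma, adjusted p = 0.0398). Many of the 45 lie close together on chromosome 2 and may share reads too, so they are not separate instances of the shift. Below the level of 300, the 104 tested KRAB genes of the Zfp series had a median of -0.14 (81 lower), and the 37 tested without KRAB -0.10 (25 lower), where counts are low and the spread is wider.

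Level and base composition differ between the groups. KRAB genes with a mean from 300 to 600 had a median of -0.13 (55 genes) and those above 600 one of -0.07 (55 genes). The median exon GC content was 42.1% in the KRAB genes, 51.2% in the other Zfp genes and 50.1% in the like-level genes. Within bands of GC content the KRAB medians were -0.09 under 42% (53 genes), -0.10 from 42 to 45% (21), -0.11 from 45 to 50% (21) and -0.11 at 50% or more (15). Like-level genes without KRAB had medians between 0.00 and 0.02 in the same bands. The Zfp genes without KRAB had medians of 0.01, 0.01, -0.07 and 0.02 in the same order (15, 9, 19 and 54 genes), with 14 of the 19 genes from 45 to 50% lower. Removing the GC and length trend, as above, calls 8.47% of the genes tested, 844 higher and 673 lower where 387 and 661 were called without it, and 6 higher and 8 lower of the 207 Zfp genes.

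**Figure D5:**
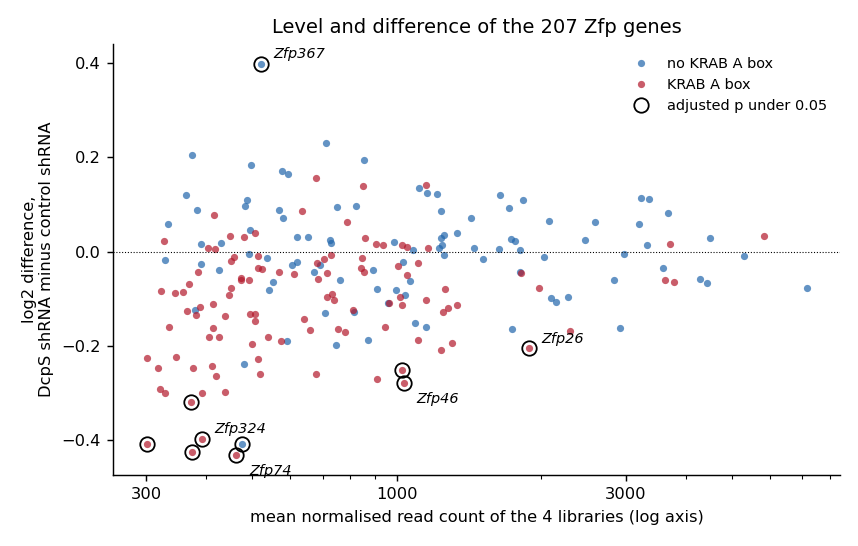
Log2 difference between DcpS shRNA and control shRNA (y axis) against the mean normalised read count (x axis, log scale) of the 207 Zfp genes, with KRAB genes in red, others in blue and a ring around the 10 called. Ringed genes lie between means of 300.6 and 1886, and the differences narrow as the level rises.

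A pair of 7-base words, ACGTGCA and CACGTGC, is present in the 3′ UTR of Dcps and had been noted in these data before. At least 1 of them occurs in the 3′ UTR of 10 KRAB genes, with a median difference of -0.24, 9 of 10 lower and 5 called (Zfp74, Zfp287, Zfp850, Zfp46 and Zfp26). Like-level genes with a word, 763 in number, had a median of -0.08, and 157 of them were called lower. The 97 scanned KRAB genes without a word had a median of -0.09 with 79 (81.4%) lower and 3 called. The 7866 like-level genes without a word had a median of 0.02, and 282 of them were called lower. A word also occurs in 10 Zfp genes without KRAB, with a median of -0.01, 6 of 10 lower and 0 called. The part of the words in the 5 calls and in the KRAB median was not tested. Both DcpS libraries carry the same shRNA label in their titles. Loss of DcpS and other effects of that shRNA cannot be told apart in these data.

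None of the Zfp genes on the lists of known roles was called (limma). Per kilobase of exon the most abundant of the 207 were Zfp57 (1000 normalised reads per kilobase), Zfp706 (903.6), Zfp207 (794.3), Zfp445 (785.8) and Zfp422 (782.8). Zfp57 and Zfp445 are the KRAB proteins that keep DNA methylation at imprinted loci. Zfp57 measured 3968.9 and 3777.0 in the controls and 3648.8 and 3753.7 under DcpS shRNA (-0.07, SE 0.05), and Zfp445 measured 5694.4 and 5812.7 against 6062.8 and 5719.3 (0.03, SE 0.05). Neither passed the test (limma, adjusted p = 0.563 and 0.799), although the DcpS values of Zfp57 lay below both controls. Zfp932, the partner of Gm15446, measured 1131.6 and 1225.5 against 1048.5 and 1019.2 (-0.19, SE 0.06, limma, adjusted p = 0.101).

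Among genes of RNA handling and translation none of 6 was called by limma (0 at an unadjusted p under 0.05), with a median of 0.03. Zfp598, the ubiquitin ligase that marks collided ribosomes, measured 1280.8 and 1202.9 against 1291.1 and 1252.7 (0.04, SE 0.06). Zfp326, a subunit of a complex that couples RNA polymerase II elongation with splicing, measured 1691.3 and 1733.1 against 1754.4 and 1733.2 (0.03, SE 0.05). The RNA-binding proteins Zfp106 and Zfp638 had differences of -0.07 (SE 0.05) and -0.06 (SE 0.06).

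None of the 4 genes of ubiquitin, SUMO and mitosis was called (limma, 1 at an unadjusted p under 0.05). Zfp451, a SUMO ligase, measured 3204.0 and 3240.7 in the controls and 3411.7 and 3553.6 under DcpS shRNA (0.11, SE 0.05, limma, adjusted p = 0.259), above both controls in both libraries. The ubiquitin ligase Zfp91 stood at 0.08 (SE 0.05), the kinetochore protein Zfp207 at -0.01 (SE 0.05) and the parkin substrate Zfp746 at 0.02 (SE 0.07).

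Of 10 genes with roles in neural development none was called either (limma, 2 at an unadjusted p under 0.05), with a median of -0.02. Zfp462, the most read of the 207 genes, varied more between replicates than between groups, with 6925.8 and 7792.0 in the controls and 7709.2 and 6287.0 under DcpS shRNA (-0.08, SE 0.10). Zfp423 was higher in both libraries, with 658.5 and 649.2 against 743.2 and 792.3 (0.23, SE 0.07, limma, adjusted p = 0.0662). Zfp704 was lower in both libraries, with 3102.3 and 3061.2 against 2878.3 and 2635.1 (-0.16, SE 0.06, limma, adjusted p = 0.114). Zfp292 and Zfp609 stood at 0.01 (SE 0.07) and -0.01 (SE 0.07), their DcpS values lying on both sides of the controls.

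The 10 genes of chromatin complexes had a median of 0.02 and no call (limma, 1 at an unadjusted p under 0.05). Zfp532, of the complex it forms with Zfp592 and Zfp687, stood at 0.02 (SE 0.06), Zfp592 at 0.10 (SE 0.07) and Zfp687 at -0.15 (SE 0.06, limma, adjusted p = 0.172), the last with both DcpS libraries below both controls. Zfp512 stood at 0.07 (SE 0.05), Zfp644, which binds the H3K9 methyltransferases G9a and GLP, at -0.04 (SE 0.05) and Zfp410, the activator of Chd4, at 0.01 (SE 0.06). The 5 DNA-binding factors of the last list had a median of 0.06 and no call (limma, 0 at an unadjusted p under 0.05). Zfp148 stood at 0.11 (SE 0.06), Zfp384 at 0.09 (SE 0.06), Zfp740 at 0.06 (SE 0.05) and Zfp281 at 0.01 (SE 0.07). Leaving aside the KRAB genes of imprints and retroelements, the medians of the role lists lay between -0.02 and 0.06, and of their genes only Zfp746 carries KRAB.

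The machinery that KRAB proteins recruit did not share the lower values. Of 35 listed genes 34 were tested, with a median difference of 0.00 and 17 lower. Trim28 measured 9210.0 and 8893.4 in the controls and 8980.2 and 9071.8 under DcpS shRNA (0.00, SE 0.05), and Setdb1 measured 2209.1 and 2261.3 against 2272.3 and 2207.1 (0.00, SE 0.05). The HP1 protein Cbx1 rose (0.23, SE 0.05, limma, adjusted p = 0.0142). The NuRD remodeller Chd3 (-0.25, SE 0.05, limma, adjusted p = 0.0119) and the maintenance DNA methyltransferase Dnmt1 (-0.26, SE 0.05, limma, adjusted p = 0.00567) fell. Dnmt1 holds both of the 3′ UTR words named above.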

How the data were processed

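Values were taken from the table of 32681 gene rows that the authors deposited, which holds 1 signal column of normalised read counts for each of the 4 libraries. Per the submitters' processing notes, which give neither order nor role, the tools were HISAT2 2.2.0, SAMtools 1.3.1, Picard, featureCounts and DESeq2 and the build was GRCm38; the gene annotation, the strand setting and the rule for reads that match several places were not given in the sources used here. All deposited signal values were whole reads divided by 1 factor per library: dividing by the step gave whole numbers (within 0.001) for 100% of the values in every library, and the recovered totals ranged from 17754768 to 21793685 reads.

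Because the deposited values are scaled, the test was limma 3.58.1 (intensity trend, robust) on log2(value + 1), so a log2 difference understates the change of low genes. It ran over the 18110 genes kept by edgeR's filterByExpr with a minimum count of 10, with group as the only term, 2 libraries against 2 and Benjamini-Hochberg adjustment over all genes tested; a gene is called below when its adjusted p is under 0.05. The step was tested on simulated data. Count models on the recovered reads (edgeR 4.0.16, DESeq2 1.42.0), other scalings, pseudocounts of 0.1 and 10, no filter, a replicate block and leaving out each library were the alternatives; removing a trend on GC content and exon length (splines with 4 degrees of freedom) and the word ACTACANTT were added after seeing the data. Gene positions, 3′ UTRs and coding sequences came from GENCODE mouse release M21 (GRCm38); all 207 genes matched. A C2H2 finger was counted where the translated sequence read C, 2 to 4 residues, C, 12 residues, H, 3 to 5 residues, H. A KRAB A box was called where any isoform matched at least 16 of 29 scored positions of a 39-residue consensus. Those translations stood in for the RefSeq proteins first planned. Promoters came from RefSeq (GRCm38.p6).

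The genes, role lists and comparisons were chosen with earlier results of these data known. Genes were named by rule: those called, the 5 with the most reads per kilobase of exon, the 3 on either side of the threshold of 300, up to 4 per role list by level, and the called genes of the silencing list; Trim28, Setdb1, Zik1, Gm15446, Dcps, Rbak, Zfp423, Zfp592, Zfp687, markers and genes of the clusters were named after their values were seen. With 2 libraries a group an exact permutation test cannot go below p = 0.333, so none is given for single values.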

Additional observations from a re-analysis of the deposited data

How the results depend on the processing

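The count of called Zfp genes rests on the model and the libraries, and the KRAB median less so. The 10 calls became 0 with DESeq2, 14 with the GC and length trend removed, 11 without a filter, 4 among genes with a mean of 500 or more, and 6 to 20 when 1 library was left out; over all genes 1048 became 415 with DESeq2 and 747 to 1745 without 1 library, and among like-level genes 764 became 360 with DESeq2, 1174 with the trend removed and 535 to 1361 without 1 library. Among the counts of Zfp genes without 1 library, 6 came without control library 1 and 20 both without DcpS library 1 and without DcpS library 2; the 1745 and 1361 came without DcpS library 1 and the 747 and 535 without control library 2. Removing the trend moved the median of all 207 genes from -0.0441 to -0.0089, that of the KRAB genes from -0.0965 to -0.0524 and that of the other KRAB genes of like level from -0.0940 to -0.0458; leaving out 1 library gave -0.0649 to -0.0432, -0.1114 to -0.0873 and -0.1065 to -0.0725. Of the 110 KRAB genes 76 were lower with the trend removed and 84 to 90 without 1 library. Without 1 library their median minus that of the like-level genes was -0.1203 to -0.0971. With the trend removed these medians were -0.0524 and 0.0374, a smaller distance. The fitted trend included a constant, so its removal also re-centred each library. With it the median of all genes tested moved from 0.0007 to 0.0241 and that of the like-level genes from 0.0106 to 0.0374. The parts of re-centring, of the trend itself and of single libraries in these moves were not tested.

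With the replicate number as a replicate block the counts were 21 Zfp genes and 1626 genes in all. The titles carry a set number, 1 or 2, in both groups, and it is not stated to mark shared preparations. The deviations of same-numbered libraries correlated at 0.03 over 9504 genes. With 2 libraries a group this cannot tell whether a preparation was shared, so the pairing is unknown.

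Signs turned for genes near 0. With the trend removed Zfp207 stood at 0.0326, Zfp609 at 0.036, Zfp638 at 0.022 and Zfp644 at 0.0316. Leaving out 1 library gave -0.067 to 0.0818 for Zfp281, -0.0994 to 0.1291 for Zfp292, -0.0384 to 0.0672 for Zfp410, -0.0085 to 0.0756 for Zfp445, -0.2246 to 0.0696 for Zfp462, -0.029 to 0.0767 for Zfp532, -0.0103 to 0.0802 for Zfp598, -0.1202 to 0.1081 for Zfp609, -0.1285 to 0.0119 for Zfp638 and -0.0728 to 0.1059 for Zfp746. Over the genes named by rule and their settings 499 values kept direction and side of the threshold, 27 lost a call, 13 gained one and 20 turned sign. With 2 libraries a group and genes near 300 reads, differences of a few percent were within the SE of single genes.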
